A study of Homo sapiens with 4 samples.

Results

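The chaperone and cochaperone genes described here were chosen by symbol: the families HSP90, HSPA, HSPB, HSPD, HSPE, HSPH, DNAJ and FKBP, the cyclophilins and other symbols made of PPI and a further letter, the CCT subunits, TCP1, STIP1 and AHSA1. HSP90B1, HSPA5 and DNAJC10, chaperones of the endoplasmic reticulum, were left out. The rule found 34 genes with a feature on the array, and 33 of them, out of 4454 named genes in all, had a value on at least 2 of the 4 arrays. These were 2 HSP90 genes, 5 genes named HSPA, the Hsp60 gene HSPD1, 2 CCT subunits, 13 J protein genes, HSPBAP1, 5 FKBP genes and 4 PPI-named genes. The 34 genes included no HSPE or HSPH gene and none of HSPA8, TCP1, STIP1 and AHSA1. All 4 arrays gave a value for 28 of the 33, and these 28 were tested. The label fits them only in part. HSPBAP1 encodes a protein that binds a small heat shock protein and is not one itself, HSPA8P14 is a pseudogene, and several J proteins, FKBPs and cyclophilins have tasks outside general folding.

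Chaperones are proteins that help other proteins to fold, and cochaperones steer their cycles of client binding and release. In the cytosol, J proteins deliver clients to Hsp70, the adaptor proteins pass some of them on to Hsp90, and the ring-shaped CCT complex folds actin and tubulin, while mitochondria hold an Hsp70 and an Hsp60 of their own. Growing lymphoma cells make much protein, and MYC is a transcription factor known for driving genes of protein synthesis and growth.

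The RNA came from OCI-Ly10, an established cell line from a human large B-cell lymphoma of the diffuse type. On each of the 4 arrays, RNA of cells electroporated with 4 uM of a SMARTpool siRNA mix against MYC was hybridised with RNA of control cells harvested at the same time. The controls had received 4 uM of a nonspecific siRNA against Renilla luciferase (arrays at 8 h and 24 h) or had been electroporated in Solution T without siRNA (arrays at 6 h and 24 h). The MYC siRNA channel carried Cy5 on every array and 0 arrays had the dyes swapped, so a dye bias of single genes cannot be told apart from a response. Each value is a log2 ratio, taken as MYC siRNA over control: a value of 0 means equal transcript, and a negative value less transcript with MYC siRNA. That direction is likely from the labels but unstated, and every "lower" would read "higher" under the other one. In bulk RNA, less transcript per cell and fewer cells that express a gene give the same ratio. A ratio of 2 channels of the same line gives no level, so the labelled cell type was not checked here.

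MYC itself, measured by 4 features, stood at -0.94 (8 h) and -0.35 (24 h) beside control siRNA and -1.26 (6 h) and -1.03 (24 h) beside no siRNA. Between 12028 and 12784 features had a value on an array, with standard deviations over features from 0.288 to 0.447, the widest on the 24 h array against no siRNA. With only 4 arrays, precision was low: a mean had a median standard error of 0.095 over all rows and of 0.097 over the tested chaperone genes.

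Chaperone transcripts moved in both directions, and more of them downward. Limma's test of the mean log2 ratio against 0, adjusted by Benjamini-Hochberg over all 6798 rows, called 6 of the 28 genes lower at an adjusted p under 0.05. They were the mitochondrial Hsp70 gene HSPA9, the Hsp90 cochaperone FKBP4, the ribosome-associated J protein DNAJC2, both cytosolic Hsp90 genes and the CCT subunit CCT3. The 6 make up 21.4% of the 28, where 10.2% of all rows and 9.71% of the 3954 tested named genes were called lower. The mitochondrial J protein gene DNAJA3 and the FKBP gene FKBP15 were called higher, which is 7.14% of the 28 beside 5.56% of all rows and 5.13% of named genes. The other 20 genes did not pass, with means between -0.36 and 0.23. The median of the 28 means was -0.07, against -0.003 over all rows.

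**Figure D1:**
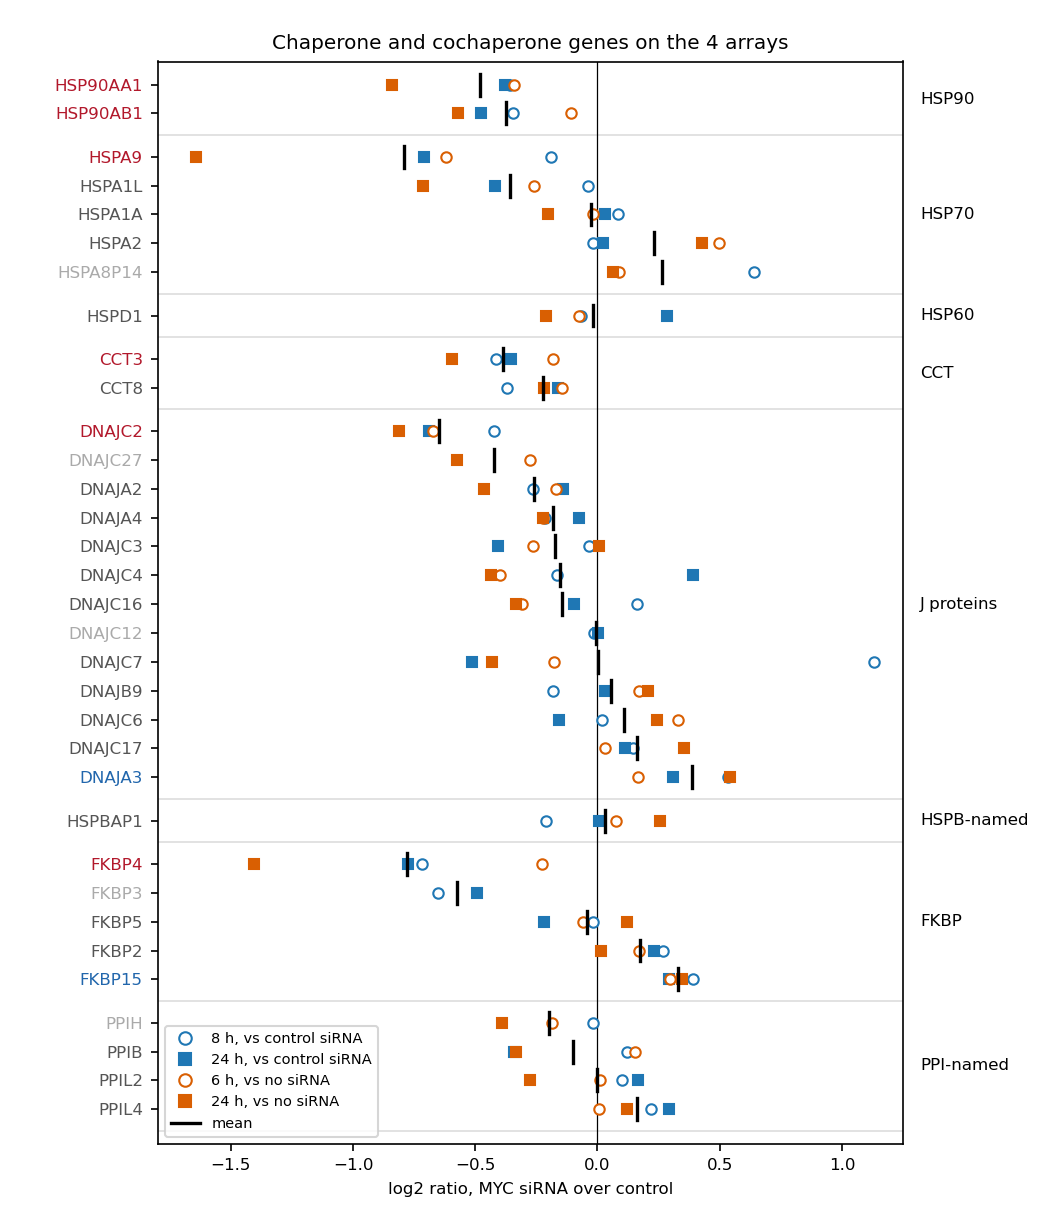
Log2 ratio of MYC siRNA over control (x axis) for each of the 33 genes (y axis, grouped by family), with open circles for the early arrays, filled squares for 24 h, blue for control siRNA and orange for no siRNA, and a black bar for the mean. Gene names are red where called lower, blue where called higher, dark grey where not called and light grey where not tested. The 24 h array against no siRNA, the array with the widest spread, is the lowest point of each of the 6 genes called lower. It is the lowest for 34.0% of all rows of either sign, and the share among all rows called lower was not counted.

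Values lay below 0 on all 4 arrays for 10 of the 28 genes (35.7%, beside 23.3% of all rows), above 0 on all 4 for 5 (17.9%, beside 19.4%), and on both sides of 0 for 13. By array, the median of the 28 was -0.04 (8 h) and -0.12 (24 h) beside control siRNA and -0.09 (6 h) and -0.22 (24 h) beside no siRNA. The 24 h array against no siRNA held the lowest value of 15 of the 28 genes and the highest of 6. Of all rows, 34.0% had their lowest and 25.9% their highest value there.

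**Figure D2:**
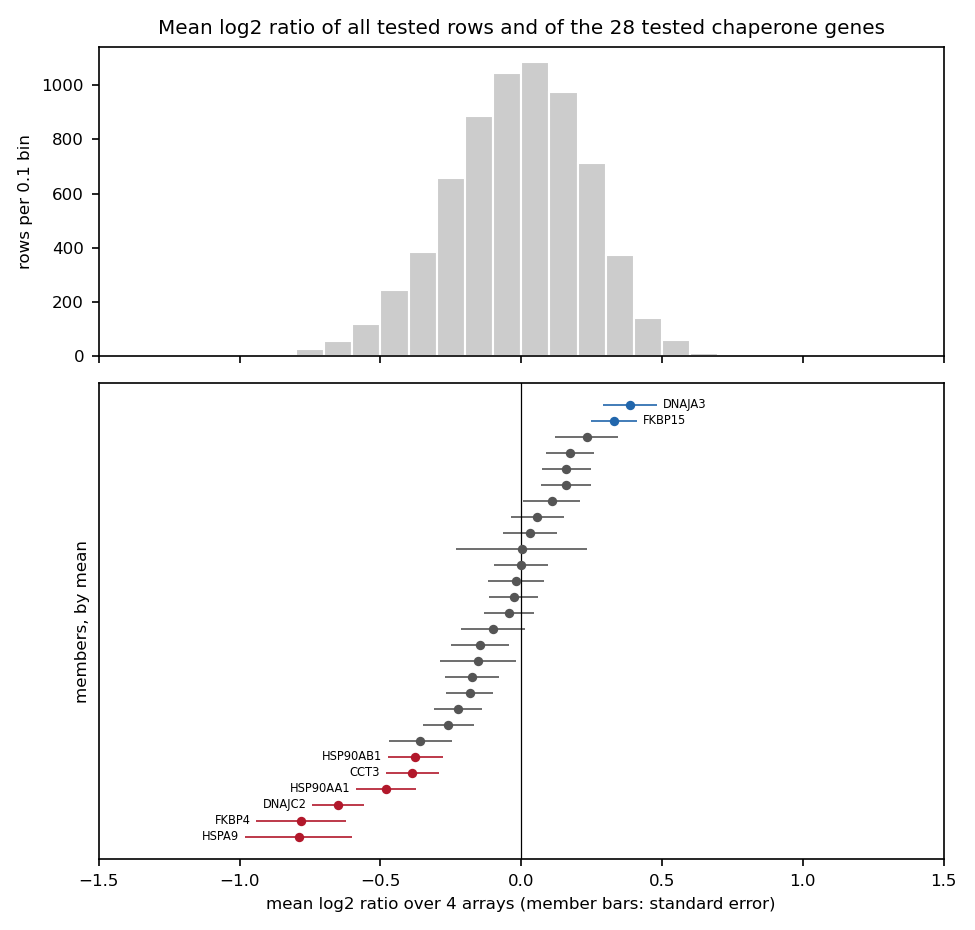
Top, the number of all 6798 tested rows per bin of 0.1 of the mean log2 ratio over 4 arrays. Bottom, the mean and standard error of each of the 28 tested chaperone genes, sorted, with genes called lower in red and called higher in blue; HSPA9 and FKBP4 lie in the far left tail of all rows, and most of the others in its bulk.

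Both genes of cytosolic Hsp90, the chaperone that matures kinases, steroid receptors and other signalling proteins, were lower with MYC siRNA. HSP90AA1, the stress-inducible form, stood at -0.36 (8 h) and -0.38 (24 h) beside control siRNA and -0.34 (6 h) and -0.84 (24 h) beside no siRNA. Its 3 other arrays lay within a narrow band, and the 24 h array against no siRNA lay far below them. The mean was -0.48 ± 0.24 (SD, n = 4; limma adjusted p = 0.0241), or 71.7% of control. HSP90AB1, the constitutive form, stood at -0.35, -0.48, -0.11 and -0.57 on the arrays in the same order. All of its values lay below 0, with the 6 h array nearest to it. Its mean was -0.38 ± 0.20 (SD, n = 4; limma adjusted p = 0.0353), which of the 8 called genes lay nearest to the threshold, while HSPA1L just outside had an adjusted p of 0.0603. The features of the pair did not all move by the same amount. The 3 features of HSP90AA1 averaged -0.51, -0.58 and -0.35, each called lower in the test of single features, and the 2 of HSP90AB1 averaged -0.50 (called) and -0.26 (not called). The 2 genes are close in sequence, and how far a feature of one also binds transcript of the other is not known here.

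The Hsp90 genes also share letters near their transcription starts. The heat shock element, to which heat shock factors bind, is built of inverted GAA repeats, and pairs of them were searched as GAANNTTC and TTCNNGAA, each of which reads the same on both strands. RefSeq promoter windows of GRCh38.p14, which run from 250 bases before to 50 bases after a start, were matched by symbol for 31 of the 33 genes. A pair of either form was present in a window of 8 of the 31 (25.8%), and in 16.2% of all 27305 genes with a window. A gene can have several windows. Counted by window, the shares were closer, at 17.4% of the 46 windows of these genes and 13.5% of all 35116. The 8 were 3 of the 5 genes called lower that had a window (both Hsp90 genes and HSPA9), 0 of the 2 called higher, and the uncalled HSPA1A, HSPA1L, HSPD1, DNAJA4 and DNAJC6. Several pairs were found in both Hsp90 genes and also in HSPD1 and DNAJA4. One site of each is shown beside that of HSPA1A, the stress-inducible Hsp70 gene, whose transcript did not pass the test. Capitals mark the pair, and each run is read along the strand of its gene.
HSP90AA1 (chr14:102087109-102087138, minus strand, pair starting 83 bases before a transcription start): gggttcttccgGAAGGTTCgggaggcttct
HSP90AB1 (chr6:44247825-44247854, plus strand, 107 bases before a start): agattgttctgGAAGCTTCtggattctggc
HSPA1A (chr6:31815426-31815455, plus strand, 106 bases before the start): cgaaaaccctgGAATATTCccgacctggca
The neighbouring gene HSPA1L is transcribed the other way, and its own pair, 161 bases before its start, is the same site as that of HSPA1A. These matches describe the letters alone.

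Of the Hsp90 cochaperones and relatives, FKBP4 fell furthest. This immunophilin joins Hsp90 through a TPR domain and assists steroid receptors. Its log2 ratio was -0.72 (8 h) and -0.77 (24 h) beside control siRNA and -0.23 (6 h) and -1.40 (24 h) beside no siRNA. Every array lay below 0, with the lowest value 37.8% and the highest 85.6% of control. The mean was -0.78 ± 0.48 (SD, n = 4), 58.2% of control, with a limma adjusted p of 0.0207, from 1 feature. Only 0.294% of all rows had a lower mean. Its close relative FKBP5, which also joins Hsp90, did not pass, at -0.04 ± 0.14 (limma adjusted p = 0.753). That mean joined 2 features on opposite sides of 0: one averaged 0.27 ± 0.25 and the other -0.36 ± 0.18 (SD, n = 4), the latter called lower among single features. DNAJC7, a J protein that binds Hsp70 and Hsp90 through TPR repeats, gave 1.13 at 8 h, in contrast to -0.51, -0.18 and -0.43 on the other arrays. Its mean was 0.002, and -0.37 without the 8 h array (limma adjusted p = 0.0735). The sign of its mean thus rested on that array, and it had 1 feature.

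Among the FKBP genes outside the Hsp90 cycle, FKBP15, a protein of early endosomes and the actin cytoskeleton, was higher with 0.39, 0.29, 0.30 and 0.34 on the arrays in the order given above. These 4 values lay closer together than those of any other called gene. The mean was 0.33 ± 0.05 (SD, n = 4; limma adjusted p = 0.0302), and its 2 features averaged 0.327 and 0.333. FKBP2, of the endoplasmic reticulum, had a mean of 0.17 ± 0.11 (limma adjusted p = 0.18, not called). FKBP3, a nuclear FKBP, had values on the arrays against control siRNA only, -0.65 at 8 h and -0.49 at 24 h. A fit of all 8509 rows with at least 2 arrays gave it a mean of -0.57 and a limma adjusted p of 0.0464, with both arrays against no siRNA missing from that fit.

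In the Hsp70 family, the mitochondrial member fell, and the tested cytosolic ones, HSPA1A, HSPA1L and HSPA2, did not pass. HSPA8 had no feature under its symbol, so the cytosolic Hsp70 genes were covered only in part. HSPA9, also called mortalin, pulls imported proteins into the mitochondrial matrix and folds them there. Its values were -0.19 (8 h) and -0.71 (24 h) beside control siRNA and -0.62 (6 h) and -1.64 (24 h) beside no siRNA. Within each kind of control the 24 h value was the lower one, and the 24 h array against no siRNA, at 32.0% of control, was the lowest value of any of the genes on any array. The mean was -0.79 ± 0.61 (SD, n = 4; limma adjusted p = 0.029), from 1 feature, and 0.25% of all rows had a lower mean. HSPA1L, an Hsp70 gene known for expression in testis, stood at -0.04 and -0.42 against control siRNA and at -0.26 and -0.71 against no siRNA, early array first. It averaged -0.36 ± 0.28 and missed the threshold (limma adjusted p = 0.0603). Of its 3 features, 1 had a value on every array (mean -0.42, adjusted p = 0.0394 among single features), and the other 2 had values against control siRNA only. HSPA1A averaged -0.03 ± 0.12 over 5 features. The means of the 3 features with all arrays ran from -0.28 to 0.07, and a feature with 3 values averaged 0.38. On the 24 h array against no siRNA the features ran from -0.98 to 0.66. The mean of HSPA1A thus joined features that disagreed, and not every feature had a value on each array. HSPA1A and HSPA1B are nearly identical, so features of the former are uncertain between the 2 genes. HSPA2, the Hsp70 of spermatogenesis, averaged 0.23 ± 0.27, with -0.02 and 0.02 against control siRNA but 0.50 and 0.43 against no siRNA. The pseudogene HSPA8P14 had 3 values, 0.64 at 8 h and 0.09 and 0.07 against no siRNA, and transcript of its parent gene could bind the same feature.

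The 3 mitochondrial folding genes thus differed in their calls. DNAJA3, the J protein that works with HSPA9, was higher, at 0.54 and 0.31 against control siRNA and 0.17 and 0.54 against no siRNA, early array first. The mean was 0.39 ± 0.18 (SD, n = 4), 130.8% of control, with a limma adjusted p of 0.0304, from 1 feature. On every array the ratio of DNAJA3 lay above that of HSPA9. HSPD1, the Hsp60 chaperonin of the matrix, had values of -0.07, 0.29, -0.08 and -0.21 on the arrays in the order given first. These fell on both sides of 0, with a mean of -0.02 ± 0.21 (limma adjusted p = 0.915). The difference between these genes was not tested.

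HSPA9 and HSPD1 both hold the E-box CACGTG, the canonical MYC binding motif, which reads the same on both strands, in a promoter window. It was present in 8 of the 31 matched genes (25.8%) and in 8.77% of all genes with a window. Counted by window, the shares were 17.4% of the 46 windows of these genes and 7.26% of all 35116. Of the 5 genes called lower that had a window, HSPA9 was the 1 with an E-box; of the 2 called higher, 0 had one. The sites of HSPA9, HSPD1 and DNAJC16, a J protein gene that did not pass, are shown with the E-box in capitals, to set a called gene beside uncalled ones with the same letters near the start.
HSPA9 (chr5:138575403-138575432, minus strand, E-box starting 19 bases before the transcription start): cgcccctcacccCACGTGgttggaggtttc
HSPD1 (chr2:197500345-197500374, minus strand, 88 bases before a start): cggccctggcgaCACGTGaaaaaatcaccc
DNAJC16 (chr1:15526807-15526836, plus strand, 29 bases before the start): acctttaagcgtCACGTGactcccctcggg
The other genes with an E-box in a window were DNAJB9, FKBP5 and HSPBAP1, which did not pass, and DNAJC12 and PPIH, which were not tested. A match says only that the letters are there.

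Both measured subunits of the CCT complex lay below 0 on every array, and 1 of them passed. CCT3 stood at -0.42 and -0.36 against control siRNA and at -0.18 and -0.60 against no siRNA, early array first. Its mean was -0.39 ± 0.17 (SD, n = 4; limma adjusted p = 0.029). That mean is drawn from 3 features, of which 2 averaged -0.52 and -0.56 and were called lower, while the third averaged -0.09 and was not. CCT8 gave -0.37, -0.16, -0.15 and -0.22 on the arrays in the same order. Its mean of -0.22 ± 0.10 did not pass (limma adjusted p = 0.0977), with its 2 features at -0.228 and -0.221.

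Among the 13 J protein genes, 11 were tested, with 1 lower, 1 higher (DNAJA3) and 9 not passing, and a median of -0.15. Beside 10.2% of all rows lower and 5.56% higher, these counts are near the background. J proteins stimulate the ATPase of Hsp70 and differ in where they work. DNAJC2 sits on the ribosome and helps Hsp70 to receive nascent chains. Its values were -0.42 and -0.69 against control siRNA and -0.67 and -0.81 against no siRNA, early array first. All lay well below 0. Within each kind of control the 24 h value was the lower, but in both kinds the early and the 24 h values average different features. The mean was -0.65 ± 0.16 (SD, n = 4), 63.7% of control, with the smallest adjusted p of the chaperone genes, 0.0124 in limma. DNAJC2 had 3 features with 4, 3 and 1 values. The complete one averaged -0.88 ± 0.20 (limma adjusted p = 0.00631 among single features). The one with 3 values averaged -0.31 and stood at 0.11 at 8 h, so the 8 h value of the gene depends on which feature is read. Against control siRNA the complete feature stood at -0.96 at 8 h and -0.69 at 24 h, the opposite order to that of the gene's values. Against no siRNA it stood at -0.761 at 6 h and -1.127 at 24 h, and the feature with 3 values at -0.528 and -0.495.

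The general cytosolic J proteins DNAJA2 and DNAJA4 averaged -0.26 ± 0.15 and -0.18 ± 0.07 (SD, n = 4), below 0 on every array, and did not pass (limma adjusted p = 0.0775 and 0.145). Each had 1 feature called lower and 1 that was not, at -0.35 and -0.17 for DNAJA2 and -0.35 and -0.02 for DNAJA4. DNAJB9 and DNAJC3, which serve the Hsp70 of the endoplasmic reticulum, averaged 0.06 ± 0.18 and -0.17 ± 0.20. The 2 features of DNAJB9 disagreed in sign, at 0.26 and -0.15. DNAJC4 had 0.39 on the 24 h array against control siRNA and between -0.44 and -0.17 on the others, and 2 of its 3 features carried that high value. DNAJC6, the auxilin that uncoats clathrin vesicles, averaged 0.11, DNAJC16 -0.14 and DNAJC17, a protein linked to splicing, 0.16. The last was above 0 on every array, and the former 2 had both signs. DNAJC27, a Rab-like GTPase with a J domain, had values against no siRNA only, -0.28 at 6 h and -0.57 at 24 h, and DNAJC12 against control siRNA only, -0.02 and 0.004. Neither was tested.

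**Figure D3:**
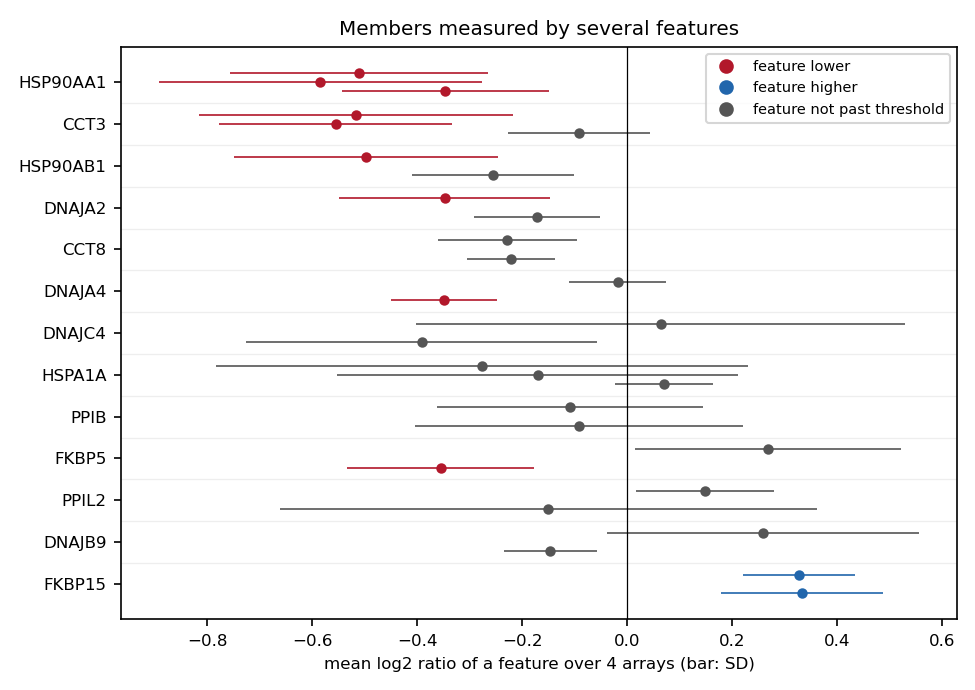
Mean log2 ratio over 4 arrays (x axis; bars are the SD) of each feature with a value on all arrays, for the 13 genes with more than 1 such feature (y axis). Features called lower are red, called higher blue and not called grey; both features of FKBP15 coincide near 0.33, while those of FKBP5 lie at -0.36 and 0.27.

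Over single features, 13 of the 44 complete ones of these genes were called lower (29.5%, beside 12.3% of all 10161 features) and 3 higher (6.82%, beside 7.09%). Over the 13 genes with several complete features, the spread between the highest and the lowest feature mean had a median of 0.30, and ran from 0.006 for FKBP15 to 0.62 for FKBP5. The spread over arrays given beside a gene's mean does not include this spread between features. Features of 1 gene are not independent of each other.

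None of the 3 tested PPI-named genes passed. These belong to the cyclophilins, a family known, like the FKBPs, for peptidyl-prolyl isomerases, though not every member need be an active one. PPIB, of the endoplasmic reticulum, stood at 0.12 at 8 h and 0.16 at 6 h but at -0.34 and -0.33 at 24 h. Both of its features were above 0 on the early arrays and below 0 at 24 h. Its mean was -0.10 ± 0.28 (limma adjusted p = 0.545). PPIL2 averaged -0.001 ± 0.20 and PPIL4, which has an RNA-binding domain, 0.16 ± 0.12 with all 4 values above 0. The spliceosomal cyclophilin PPIH had 3 values, all below 0 and lowest at 24 h against no siRNA (-0.39). HSPBAP1 averaged 0.03 ± 0.19.

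The question of time was whether the response at 24 h differed from that on the early arrays (6 h and 8 h). With time and kind of control as 2 terms of 1 limma model, 0 of the 28 genes passed for time, where 0.118% of all rows did. An unadjusted p under 0.05 was found for 5 of the 28 (17.9%) and for 687 of all rows (10.1%). Log2 ratios were lower at 24 h for 19 of the 28, with a median difference (24 h minus early) of -0.09 against 0.000 over all rows. HSPA9 averaged -0.40 early and -1.18 at 24 h, a difference of -0.77 ± 0.19 (standard error; limma adjusted p = 0.107). It was -0.52 within the arrays against control siRNA and -1.02 within those against no siRNA. DNAJC7 differed by -0.95 ± 0.24 (limma adjusted p = 0.125), with the 1.13 at 8 h among the early values. These 2 genes did pass for time when arrays were centred or when a gene's features were joined by their median. Each has 1 feature, so the median left their differences at -0.77 and -0.95. The standard error there was 0.197 in place of 0.192 for HSPA9 and 0.198 in place of 0.244 for DNAJC7. Only the error of the fit and the adjustment over rows thus differed. With centred arrays the differences were -0.76 and -0.94. FKBP4 differed by -0.62 ± 0.22 (limma adjusted p = 0.316), of which -0.06 was seen within control siRNA and -1.18 within no siRNA. PPIB differed by -0.48 ± 0.18, with -0.46 and -0.49 within the 2 kinds of control, and HSPA1L by -0.42 ± 0.18, with -0.38 and -0.45 (limma adjusted p = 0.351 and 0.441). MYC was less reduced at 24 h than early within each kind of control, by 0.59 and 0.22.

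By kind of control, 0 of the 28 passed, where 0.0883% of all rows did. Here 4 of the 28 (14.3%) and 685 of all rows (10.1%) had an unadjusted p under 0.05. HSPA9 was lower against no siRNA by 0.68 (standard error 0.19; limma adjusted p = 0.13), with means of -1.13 and -0.45. DNAJC7 and DNAJC4 differed in the same direction, by -0.61 and -0.53, and HSPA2 in the other, by 0.46 (limma adjusted p from 0.307 to 0.36). HSP90AA1, HSP90AB1, CCT3 and FKBP4 differed by -0.22, 0.07, -0.003 and -0.07. Each kind of control had its own early time, 8 h or 6 h, and anything else that differed between these pairs of arrays cannot be told apart from the control. With 1 residual degree of freedom per row, both of these tests rest mostly on the spread pooled over all rows, and a median standard error of 0.185 means that most differences of these sizes were not detectable.

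**Figure D4:**
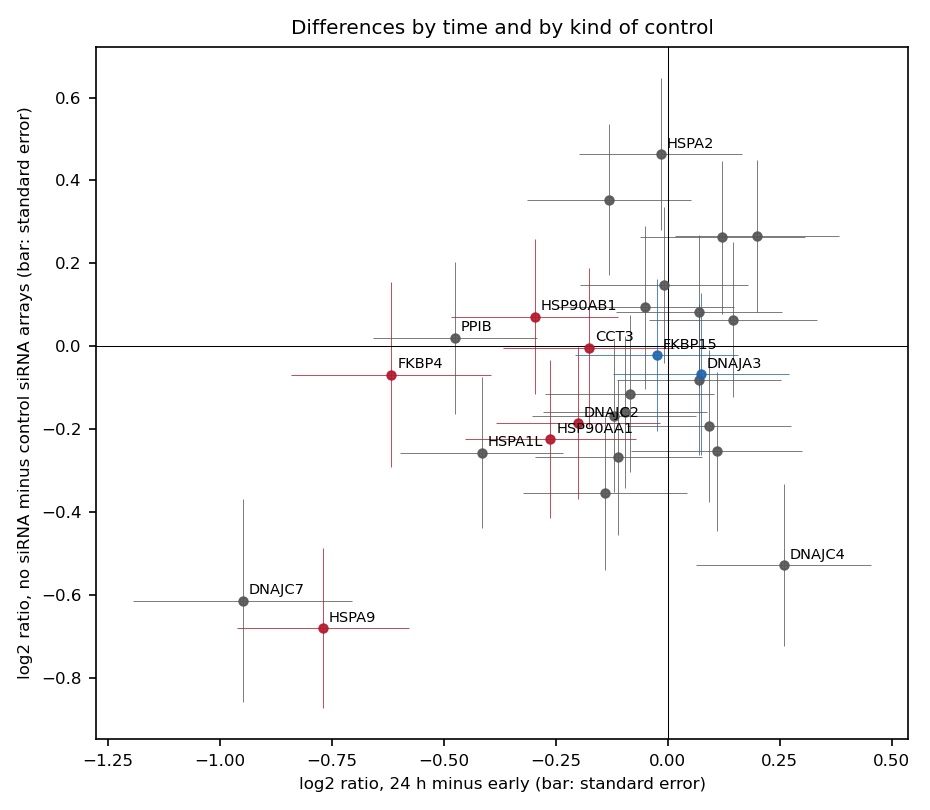
Difference in log2 ratio between 24 h and the early arrays (x axis) and between the arrays against no siRNA and those against control siRNA (y axis) for the 28 tested genes, each with its standard error in the model with both terms. Genes called lower with MYC siRNA are red and called higher blue; HSPA9 and DNAJC7 lie furthest to the lower left, and 0 of the 28 passed the adjusted test on either axis.

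Single arrays were left out to see how far the 8 calls rest on each. All 8 means kept their sign without any array, which was certain beforehand, since each gene had the same sign on every array. The highest unadjusted limma p of a gene over the 4 fits lay between 0.000643 (DNAJC2) and 0.0216 (HSP90AB1). After adjustment, the fits with 3 arrays called between 0 and 441 of all rows, where the 4 arrays called 1073. Without the 8 h array, FKBP4, HSPA9, DNAJC2 and HSP90AA1 were still called, 0 of the 8 were without the other control siRNA array or without the 6 h array, and FKBP4 (mean -0.57) and DNAJC2 (-0.60) were without the 24 h array against no siRNA. Without the latter array, which had the widest spread over all features, HSPA9 averaged -0.51 and HSP90AA1 -0.36 (limma adjusted p = 0.0528 and 0.0596). The part of that spread in these results was not tested.

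Other chaperone machinery outside the symbol rule was represented by 13 of 39 listed genes, of which 12 were tested. BAG1, a nucleotide exchange factor of Hsp70, and PDCL3, a phosducin-like partner of CCT, were lower, 0 were higher and 10 did not pass, with a median of -0.19. The shares over all rows are the 10.2% lower and 5.56% higher given above. BAG1 stood at -0.64 and -0.40 against control siRNA and -0.36 and -0.92 against no siRNA, early array first, with a mean of -0.58 ± 0.26 (SD, n = 4; limma adjusted p = 0.0187). PDCL3 stood at -0.25, -0.43, -0.43 and -1.18 in the same order, with a mean of -0.57 ± 0.41 (limma adjusted p = 0.0312). Both were lowest on the 24 h array against no siRNA, as were the 6 chaperone genes called lower. That array had the widest spread over all features. The share of all rows called lower that were lowest there was not counted, so this is not shown to be particular to chaperone genes. Of the listed genes of endoplasmic reticulum folding, 7 had a value and 6 were tested: DNAJC10 (-0.45 ± 0.18; limma adjusted p = 0.0213) and the lectin chaperone CANX (-0.48 ± 0.32; 0.0321) were lower, 0 were higher and 4 did not pass, with a median of -0.29, beside the same shares over all rows. HSP90B1, the Hsp90 of that compartment, had values from 0.23 (8 h) to -1.66 (24 h, no siRNA) and missed the threshold (limma adjusted p = 0.0861). HSPA5, its Hsp70, had 3 values, from -0.34 to -0.09, and was not tested.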

How the data were processed

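The authors' deposited value table held 1 log2 ratio per feature and array for 15154 features on 4 two-channel arrays; their log base, direction, background correction and normalization are unstated in the labels and file headers. Per the labels' protocols, Trizol RNA was reverse transcribed from oligo-dT primers. The values are signed and centred near 0, and were read as log2 of Cy5 (MYC siRNA, per the labels) over Cy3. Symbols came from the platform annotation, updated by Entrez ID through RefSeq names (10124 of 10165 features with 1 symbol matched). A gene's value on an array is the mean of its features that have one there. The 60 features of the 33 genes had values on all arrays for 44, on some for 13 and on none for 3. Rows with a value on all 4 arrays (3954 named genes, 2844 features without a symbol) were tested with limma 3.58.1 (lmFit, eBayes) in R 4.3.3, with Benjamini-Hochberg adjustment over all rows and a threshold of 0.05. Each combination of time and kind of control had 1 array, so no condition was replicated. The SD over the 4 arrays, and the spread behind the p-value of a mean, therefore include differences by time and by control. Nothing in the labels says that the cultures were separate, so the rest of the spread between arrays may be technical. The code was tested on simulated data.

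The genes, their order by family, the 2 further lists and the cell type markers were chosen with earlier results of these data known. All 33 genes are named, with values for called genes and, in each family, the largest others. Alternatives tried were rows with at least 2 arrays, centred and scaled arrays, other models, other ways to join features, and arrays left out.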

Additional observations from a re-analysis of the deposited data

Results flagged for a closer look

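Over the 28 tested chaperone genes and MYC, 2 genes had 1 array far from the other 3 relative to the range of all 4, by Dixon's criterion; chance gives about 1 in 20. HSP90AA1 stood at -0.84 on the 24 h array against no siRNA, with the other arrays between -0.38 and -0.34. Without that array its mean was -0.36 ± 0.02 (SD, n = 3). DNAJA4 stood at -0.074 on the 24 h array against control siRNA, with the others between -0.22 and -0.21. Its mean without that array was -0.220 ± 0.006 (SD, n = 3).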

How the results depend on the processing

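The 8 calls kept their direction and passed under each of the 7 alternatives that used all 4 arrays. Over single features 1 called feature was enough, and 1 feature of HSP90AB1 and 1 of CCT3 were not called. Means ran from -0.88 to -0.64 for DNAJC2, which varied most. Not every alternative could change a mean. Time and control as terms, and rows with at least 2 arrays, left all 8 means as they were. Other ways to join features could not change HSPA9, FKBP4 or DNAJA3, which have 1 feature each. Against 1073 rows, 1980 were called with time and control as terms and 1971 over single features, where 10 of the chaperone genes had a feature called lower (the 6, DNAJA2, DNAJA4, FKBP5 and HSPA1L). With an array left out, 0 to 441 rows, 0 to 4 chaperone genes lower and 0 higher were called (1796 to 2179 rows at an unadjusted p under 0.05, limma), and the median of the genes was -0.161 to -0.051. Calls by time (8 rows, 0 chaperone genes) came to 61 with centred arrays (2 genes, HSPA9 and DNAJC7), 0 with scaled arrays, 26 over complete features, 98 with the median of features (the same 2 genes) and 0 without control as a term. By control (6 rows, 0 genes) they came to 89, 0, 37, 162 (1 gene, HSPA9) and 0 in that order, and 36 over rows with at least 2 arrays. At 0 calls, limma gave 437 to 565 rows an unadjusted p under 0.05. No array could be left out of these 2 tests, since no residual degree of freedom would remain. Reversed signs were all of uncalled values. With an array left out, means ran from -0.374 to 0.175 for DNAJC7, from -0.099 to 0.014 for FKBP5, from -0.064 to 0.032 for HSPA1A, from -0.043 to 0.112 for HSPBAP1, from -0.119 to 0.047 for HSPD1 and from -0.057 to 0.092 for PPIL2. With centred arrays PPIL2 was at 0.011, and with scaled arrays it was at 0.034 and HSPD1 at 0.003. By time, DNAJA2 (0.014), DNAJA3 (-0.044) and DNAJC2 (0.008) turned with scaled and FKBP5 (0.001) with centred arrays. By control, CCT3 turned with centred (0.026) and scaled arrays (0.112) and the median of features (0.075), FKBP15 with centred (0.008) and FKBP4 with scaled arrays (0.180). The median of features left the values of HSPA9 and DNAJC7, with 1 feature each, unchanged. For these genes only the error of the fit and the adjustment over rows differed in that setting. The cause of the other changes was not tested. Signal over background is not known for any feature.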

Other observations

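DNAJC8, a J protein of the spliceosome, had a value on 1 array, -0.08 at 24 h against control siRNA, and took no part in any comparison. Among markers of cell types, 2 of 4 tested B cell genes were higher with MYC siRNA, where 5.56% of all rows were: CD79A (0.41 ± 0.27) and CD74 (0.37 ± 0.07; SD, n = 4; limma adjusted p = 0.039 and 0.0252). The other 2 did not pass, CD79B at 0.20 ± 0.10 and MS4A1, with values on both sides of 0, at -0.06 ± 0.25, and the median of the 4 was 0.28. Of 4 tested T cell and 2 tested erythroid genes, 0 passed, with medians of 0.16 and 0.004. The monocyte genes CD14 and CSF1R had values on 1 and 2 arrays and were not tested.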
